A study of Rattus norvegicus with 6 samples.

Results

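The transcriptome described here is that of Rat-1 cells, an established line of rat fibroblasts, that had settled for 4 h on native extracellular matrix (ECM). The native libraries were picked by their column names and are 2 of the 6 libraries of the series. The 4 libraries from matrix remodelled by collagenases were not used, and no matrices are compared. The cells carried no labelled genetic change and received no labelled agent. They were grown in DMEM with L-glutamine, penicillin, streptomycin and 10% fetal bovine serum and then seeded at 25000 cells per well, in duplicate. Only the cells that stuck to the matrix were lysed, in place, and their total RNA went into libraries read from the 3' end of each transcript. The labels do not say what tissue the matrix came from, whether the duplicates were separate cultures, or whether serum was present during the 4 h of contact. Differences between the duplicates may therefore be technical.

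Fibroblasts are the main cells that build and repair connective tissue. They secrete procollagens, fold and trim them, and lay them down around a scaffold of fibronectin. They hold on to that scaffold through integrins, which are paired alpha and beta receptors that join the matrix to the actin cytoskeleton. Matrix metalloproteinases (MMPs) cut the matrix, tissue inhibitors of metalloproteinases (TIMPs) restrain them, and growth factors bound by the cell or the matrix tune both sides.

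The native libraries held 219775 reads in replicate 1 and 347618 in replicate 2, spread over a table of 17143 gene entries. At this depth 1 read was worth 4.55 RPM in replicate 1 and 2.88 RPM in replicate 2, where RPM is the reads of a gene per 1000000 reads of its library. RPM is the scale of every level below. Levels were not divided by transcript length, because 3' end libraries give about 1 fragment per transcript whatever its length. A gene is called on here when each library held at least 4 reads, which is 18.2 RPM in replicate 1 and 11.5 in replicate 2. A gene is called not detected when both libraries held 0 reads, which allows up to 3 reads over both, or 5.29 RPM, counting error only. Genes between these limits are called trace.

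By these rules 5883 entries, 34.3% of the table, were on, 6116 (35.7%) were at trace level and 5144 (30.0%) were not detected. These shares of all entries are the background for every count of family members below. Genes that were on held 95.2% ± 0.245 of the reads (SD, n = 2), and trace genes held the remaining 4.84%. The 10 highest held 7.47% ± 0.0764 of the reads, the 100 highest 24.5% ± 0.364 and the 1000 highest 61.8% ± 0.878 (SD, n = 2). It took 547 genes to reach 50% of the reads and 4094 to reach 90%. Levels of at least 1000 RPM in both libraries were reached by 106 genes, and levels of at least 100 by 1763.

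**Figure D1:**
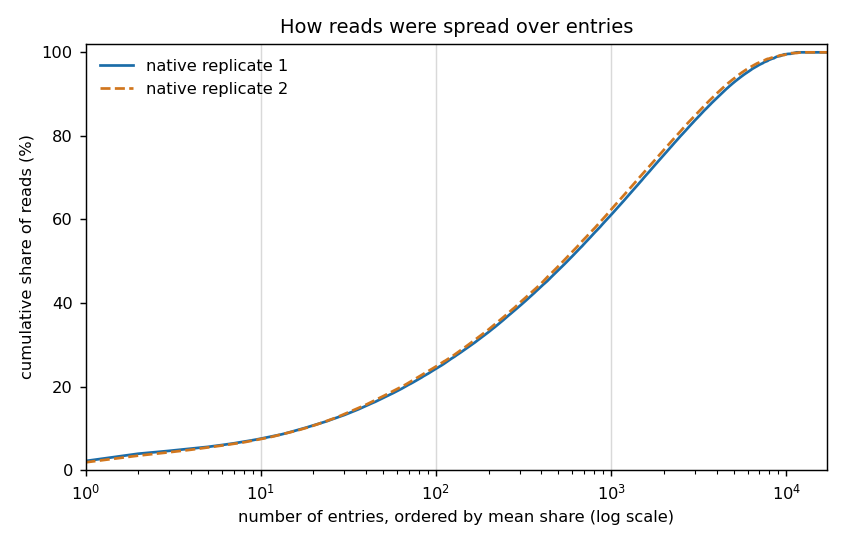
The cumulative share of reads (percent, vertical axis) is drawn against the number of entries in order of mean share (log scale), with a solid line for native replicate 1 and a dashed line for native replicate 2. The lines nearly overlap: the 100 highest entries hold 24.3% of the reads in replicate 1 and 24.8% in replicate 2.

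The silent receptor families gave a measure of background. Olfactory receptors are read in the nose and not, in general, in fibroblasts. Of their 1179 entries 443 had a read, but only 9 (0.763%) were on, against 34.3% of all entries. These receptors together took 0.385% of the reads in replicate 1 and 0.198% in replicate 2, a ratio of 1.95. Without Olr1694, the highest of them at 369 and 478 RPM, the shares were 0.348% and 0.150%. Replicate 1 thus held more reads in genes that these cells are not known to use, and its genes with a read numbered 10344, against 10251 in the deeper replicate 2. A trace call in replicate 1 alone carries little weight for that reason. An opposite limit comes from genes that a growing cell needs: Rpl35a, a protein of the large ribosomal subunit, had 1 read in each library. A gene at trace level or not detected in this table may therefore still be used by the cell.

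Below the first rank, which Mip held, the highest entries were genes of the cytoskeleton and the matrix. Actb, cytoplasmic beta-actin, stood at 17468 and 16026 RPM in replicates 1 and 2 and was the highest of the fibroblast markers. Col1a1, the alpha 1 chain of type I collagen, followed at rank 3 with 6848 and 8061. Lgals1, the secreted lectin galectin-1, was at 5492 and 6093. Vim, the intermediate filament protein of mesenchymal cells, was at 4113 and 5379, and S100a4, a calcium-binding protein also called fibroblast-specific protein, at 4013 and 3714. All 5 of these markers lay among the 8 highest entries in the mean of the libraries. Other genes of the fibroblast list were not detected, as given below. The ranks describe the libraries and are no test of the cell type, which the labels give. Reads in a bulk sample do not tell fewer cells of a type from less RNA per cell.

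The remaining places in the highest 25 went to a few functions. Cfl1, the actin-severing protein cofilin, was at 4359 and 4617 RPM. Calr, the calcium-binding chaperone calreticulin, was at 3977 and 4013, and Ppia, a prolyl isomerase of the cytosol, at 3636 and 4065. Fn1, fibronectin itself, ranked 11 at 3613 and 3509.6. Further entries of this range were Sparc, a collagen-binding matrix protein, Ctsl, the lysosomal protease cathepsin L, Bsg, the glycoprotein basigin, Fth1, the heavy chain of ferritin, Gstp1, a glutathione transferase, Nme2, a nucleotide kinase, Aldoa, a glycolytic aldolase, and Eif5a, a translation factor. These 8 spanned from 2735 to 3554 RPM in the mean of the libraries. The ribosomal protein genes Rps3, Rps16, Rpl41 and Rplp1, the other cytoplasmic actin Actg1 and the ribosomal RNA entry Rn45s also lay among the 25. Of the 25 highest entries in each library, 23 were shared.

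The first rank did not belong to a fibroblast gene. Mip, the water channel of the eye lens (aquaporin-0), took 21781 and 18604 RPM, 2.02% ± 0.225 of all reads (SD, n = 2). Lens crystallins did not accompany it at a like level. Of 20 lens entries, a list added after its level was seen, 10 were not detected, among them Cryaa, the main alpha crystallin. The crystallin Cryba1 was on at 22.8 and 11.5 RPM, near the limit of that call. The neighbours of Mip in the RefSeq order of genes were low: Spryd4 on one side had 8 and 7 reads and Timeless on the other 4 and 17. Whether the reads counted for Mip arose from that gene's own transcript was not tested.

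**Figure D2:**
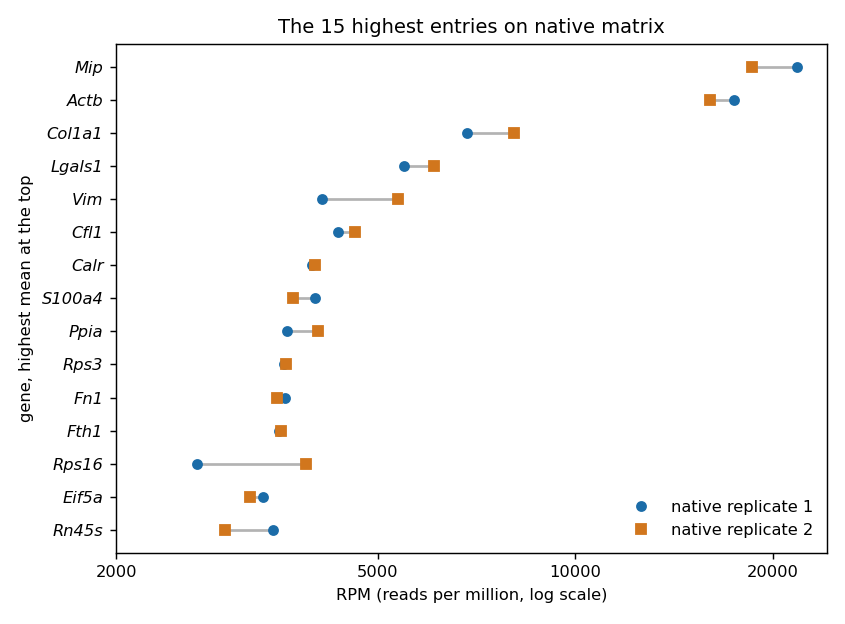
Each row is 1 of the 15 highest entries, ordered by mean level, with its level in native replicate 1 (circle) and replicate 2 (square) in RPM on a log axis. Mip and Actb lie at 16026 RPM or more in both libraries, while every other entry lies at 8061 or less.

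Promoter sequence was looked up for the genes at the top of the list. RefSeq gives a window from 250 bases before to 50 after the annotated start, on build GRCr8, for 83 of the 100 highest genes. Actb, Col1a1, Lgals1 and Fn1 had no window and were not searched. The letters TATAAA, the core of the TATA box that positions the start of transcription, were searched for on the gene's own strand with a first base 45 to 15 bases before the start. They were found in 10 of the 83 windows (12.05%), against 1.17% of 4886 genes on with a window, 3.81% of genes not detected and 1.94% of all 27457 RefSeq windows. Mip was among the 10, and the 3 genes that follow it by level are shown, with TATAAA in capitals: Calr (chr19:40213307-40213366, plus strand), S100a4 (chr2:178388469-178388528, plus strand) and Ppia (chr14:85493156-85493215, plus strand).
Calr: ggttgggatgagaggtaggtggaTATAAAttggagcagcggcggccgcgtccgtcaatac
S100a4: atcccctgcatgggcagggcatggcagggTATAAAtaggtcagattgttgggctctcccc
Ppia: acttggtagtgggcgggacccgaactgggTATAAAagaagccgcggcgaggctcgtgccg

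Fibroblast lineage markers were mostly on: 15 of 22 entries, against 34.3% of all entries. Apart from the genes named above, Thy1, a surface glycoprotein of mesenchymal cells, was at 746 and 958 RPM. Pdpn, podoplanin, was at 391 and 397. Several textbook fibroblast genes were missing from the profile. Fap, Lum, Dpt and Ly6c were not detected, and Dcn, the collagen-binding proteoglycan decorin, had 0 and 1 reads. Type I collagen was thus read at a high level with decorin at trace level.

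Markers of other cell types were scarce. Of 82 entries over 10 lists, 9 were on and 38 were not detected, against 34.3% on and 30.0% not detected of all entries. All 82 together took 0.0928% of the reads in replicate 1 and 0.0765% in replicate 2. None of 8 endothelial, 9 neural, 7 adipocyte or 5 erythroid markers was on. Pecam1 had 6 and 1 reads and Cdh5 had 0, and Fabp4 of fat cells was not detected. Of 13 leukocyte markers Csf1r and Cd14 were on, with Csf1r at 59.2 and 25.9 RPM, while Cd68 and Itgam were not detected. Scx, the tendon transcription factor scleraxis, stood out at 168 and 181 RPM, and the late tendon genes Tnmd, Kera and Chad were not detected. Cartilage genes were on at low levels, with Acan, aggrecan, at 63.7 and 46.0 RPM, Col2a1 at 54.6 and 43.2 and Comp at 45.5 and 48.9. Mcam of pericytes, Krt8 of epithelium and Myh1 of muscle complete the 9.

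The matrix programme, 114 entries in all, took 2.95% ± 0.110 of the reads (SD, n = 2), with 61 entries on. Collagens made up 1.12% ± 0.0740. Of 27 collagen entries 14 (51.9%) were on, against 34.3% of all entries, 9 were trace and 4 were not detected. One gene dominated: Col1a1 alone gave 66.4% of the reads of these 27 entries. Its partner Col1a2, the alpha 2 chain of type I collagen, was at 1770.0 and 1648 RPM, so that Col1a1 exceeded it 3.87-fold in replicate 1 and 4.89-fold in replicate 2. Type I protein is built of both chains. Col3a1, the chain of type III collagen that loose tissue makes beside type I, was at only 41.0 and 80.5. That was 167-fold below Col1a1 in replicate 1 and 100.1-fold below it in replicate 2, ratios that rest on few Col3a1 reads.

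Type V collagen, which sits in the core of type I fibrils and limits their width, was present with all of its chains. Col5a1 was at 459.6 and 630.0 RPM, Col5a2 at 341 and 273 and Col5a3 at 209 and 196. Among the remaining fibrillar genes Col27a1 was at 95.6 and 127 and Col11a1 at 36.4 and 60.4. Col11a2 alone of the 10 fibrillar entries was not on, with 5 and 0 reads. Among the collagens with an entry, the nonfibrillar ones were sparser. Col6a2, a chain of the beaded filaments around cells, was at 205 and 224. Col18a1, a basement membrane collagen that carries endostatin, was at 228 and 149.6, and Col16a1, which links fibrils to other matrix, at 191 and 141. Of 4 basement membrane and network entries only Col4a1 was on, at 105 and 83.4. Col4a4, Col9a1, Col13a1 and Col23a1 were not detected. Col4a2, Col6a1, Col6a3 and Col12a1 were not analysed here. They were among 17 collagen genes without an entry, so the nonfibrillar set and the collagen total are incomplete.

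The genes that fold, trim and cross-link procollagen had 20 of 26 entries on and took 0.720% ± 0.0184 of the reads (SD, n = 2). Serpinh1, the collagen-specific chaperone HSP47, was at 1884 and 2160.4 RPM. P4hb, the subunit of prolyl hydroxylase that also forms disulfide bonds, was at 1925 and 1789. Pcolce, which enhances the removal of the C-propeptide, was at 1069 and 1096, and Ppib, the isomerase of the endoplasmic reticulum, at 391 and 480.4. Each of these 4 lay above every collagen gene other than Col1a1, Col1a2 and, for Ppib, Col5a1. The other 6 entries were at trace level or not detected. Adamts2, the N-proteinase of procollagen I, and Leprel1 were not detected, Crtap had 1 and 0 reads, and Lox, which cross-links collagen and elastin, had 2 and 11 and fell short of the call.

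Beyond collagen, fibronectin and the elastic fibre proteins took 0.556% ± 0.000814 of the reads (SD, n = 2), 64.0% of it from Fn1. Fbln5, which organises elastic fibres, was at 605 and 538 RPM. Ltbp2, of the latent TGF-beta binding protein family, was at 346 and 521, and Mfap5, a microfibril protein, at 246 and 245. Eln, elastin itself, was not detected, as were Mfap4 and Vtn, the serum adhesion protein vitronectin. The scaffold of elastic fibres was thus read without their core protein.

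Matricellular proteins, which sit in the matrix and signal to cells, had 7 of 18 entries on. This share, 38.9%, lay near that of all entries (34.3%). Sparc, at 2621 and 3026 RPM, gave 74.6% of their reads. Spp1, osteopontin, was at 337 and 288. Cyr61, a growth factor-induced integrin ligand, was at 209 and 262. Thbs1, thrombospondin-1, had 0 and 1 reads, and Postn, periostin, had 8 and 1, so neither was on. Laminins had 5 of 7 entries on, with Lamc1 highest at 132 and 210.0. Lama5 was at 137 and 167 and Lamb2 at 127 and 161, which gave at least 1 chain of each of the classes alpha, beta and gamma. Lama2, Lama3, Lama4 and Lamb1 were not analysed here, so the laminin set is incomplete. Of 18 proteoglycan and hyaluronan synthase entries 4 were on. Bgn, the small proteoglycan biglycan, dominated at 1128 and 857 and gave 81.8% of their reads. Lum, Prelp, Kera and Bcan were not detected, and Hspg2 was not analysed here.

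Of 8 integrin beta entries 3 were on, a share near that of all entries (34.3%). Itgb1, the beta 1 chain shared by most matrix-binding integrins, was at 2429.8 and 2546 RPM and gave 90.4% of the reads of the beta entries. Itgb5, whose heterodimer binds vitronectin, was at 146 and 144, and Itgb7 at 86.5 and 77.7. The other 5 beta entries were at trace level, including Itgb3 with 0 and 1 reads. Of 12 alpha entries 5 were on, also near the share of all entries, and 3 with 10 reads asked of each library. Itga5, which pairs with beta 1 as the main fibronectin receptor, was the highest at 341 and 408. Itga6, a laminin-binding chain, was at 91.0 and 66.2. Itga8 was at 54.6 and 51.8, Itga11, a collagen-binding chain of fibroblasts, at 31.9 and 40.3, and Itga7, another laminin-binding chain, at 18.2 and 31.6.

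Itgb1 exceeded Itga5, the highest alpha chain of the table, 7.12-fold in replicate 1 and 6.23-fold in replicate 2. Itga1, a collagen-binding chain, was not detected, nor were the leukocyte chains Itgad, Itgal and Itgam. Itga2, Itga3, Itga9 and Itgav were not analysed here, so the alpha set is incomplete. Other matrix receptors were more widely on, at 15 of 21 entries. Sdc4, a syndecan that works beside integrins in focal adhesions, was at 1719.9 and 2198 RPM. Lrp1, an endocytic receptor that clears proteases and matrix fragments, was at 869 and 713. Cd44, the hyaluronan receptor, was at 278 and 247, and Sdc1 at 168 and 233. Sdc4 gave 41.0% of the reads of these receptors. The scavenger receptor Cd36 was not detected.

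**Figure D3:**
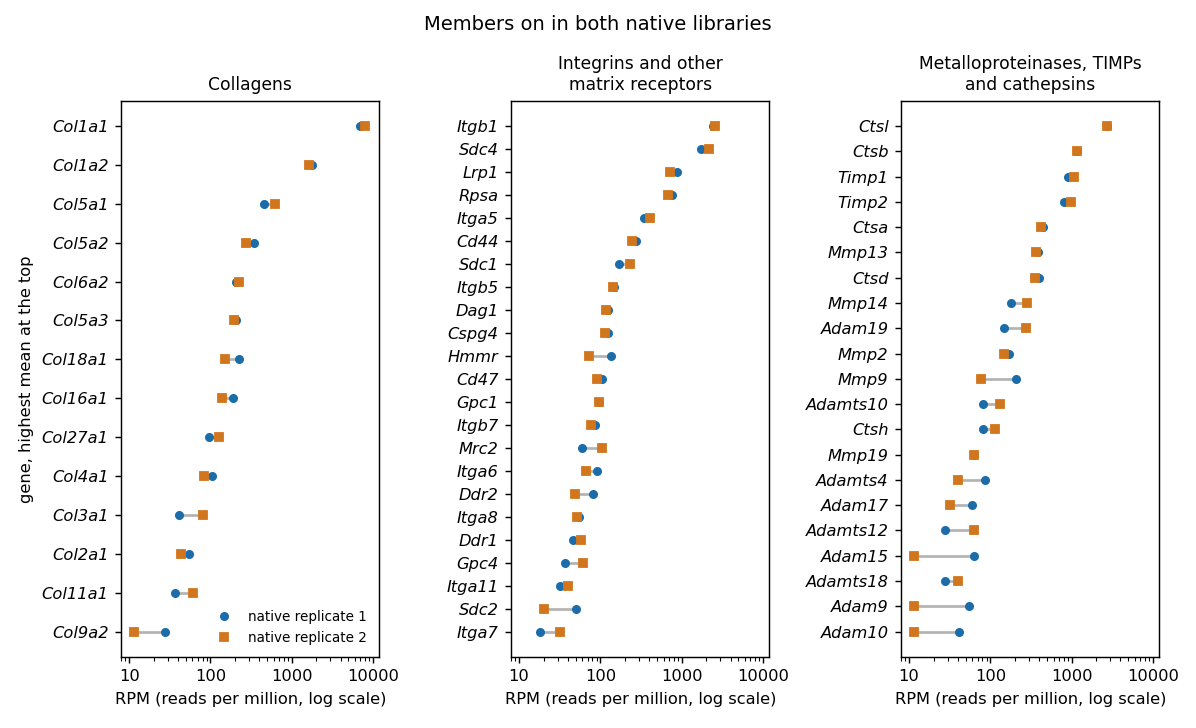
Each panel plots the genes on of 1 class (collagens; integrins with other matrix receptors; metalloproteinases with TIMPs and cathepsins) by level in native replicate 1 (circle) and replicate 2 (square), in RPM on a log axis, highest mean at the top. Col1a1 lies alone at the right of the collagens at 6848 and 8061, and Itgb1 leads the matrix receptors.

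Proteases that act on matrix took 1.26% ± 0.0119 of the reads together with their inhibitors (SD, n = 2). Of these 118 entries 38 were on, a share near that of all entries (34.3%). Of 21 MMP entries 5 (23.8%) were on, and none of them exceeded 387 RPM. Mmp13, a collagenase that cuts fibrillar collagen, was the highest at 387 and 365. Mmp14, a membrane-bound MMP that activates pro-MMP2, was at 182 and 282. Mmp2, a gelatinase, was at 168 and 147, and Mmp9, the other gelatinase, at 205 and 77.7. Mmp19 was at 63.7 and 63.3. Mmp9 was the only MMP whose libraries differed by more than read sampling (adjusted p = 0.00891, exact binomial test, Benjamini-Hochberg over 11999 genes). Mmp1, the interstitial collagenase, and Mmp10, Mmp16 and Mmp17 were not detected, and Mmp3, stromelysin-1, had 4 and 2 reads.

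The TIMPs took more reads than the MMPs. Timp1 was at 901 and 1062 RPM and Timp2 at 796 and 989.6, while Timp3 and Timp4 had 1 and 0 reads each. Timp1 was 2.33-fold and 2.91-fold above Mmp13 in replicates 1 and 2. The 4 TIMP entries took 0.188% ± 0.0244 of the reads and the 21 MMP entries 0.101% ± 0.00589 (SD, n = 2), and the shares did not overlap between the classes. Sheddases were low. Adam19 was at 146 and 273 RPM, and Adam17, which frees TNF and EGF-family ligands, at 59.2 and 31.6. Adamts10, of the microfibril-linked ADAMTS enzymes, was at 81.9 and 132, and the aggrecanase Adamts4 at 86.5 and 40.3, while the aggrecanase Adamts5 was not detected.

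Lysosomal cathepsins took 0.486% ± 0.00422 of the reads (SD, n = 2), more than all MMPs. Ctsl was at 2744 and 2727 RPM and Ctsb at 1169 and 1165, a ratio of 2.35 in replicate 1 and 2.34 in replicate 2. Ctsa was at 441 and 426 and Ctsd, the aspartic protease, at 396 and 354. Ctsk, the collagenolytic cathepsin of osteoclasts, had 1 and 2 reads, and Ctsc, Ctse, Ctsg and Ctsm were not detected.

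In the plasminogen system, which makes plasmin to cut fibrin and matrix, 7 of 14 entries were on, against 34.3% of all entries. Serpine2, the inhibitor protease nexin 1, was at 187 and 316 RPM. Plat, the tissue-type activator, was at 223 and 222, while Plau, the urokinase-type activator, and Plg, plasminogen, were not detected. Plaur, the receptor for urokinase, was nevertheless on at 255 and 193. Among other proteases Htra1, a secreted serine protease, was at 792 and 734. Lgmn, the lysosomal asparaginyl protease legumain, was at 509.6 and 572, and Furin, the proprotein convertase that matures MMP14 and TGF-beta, at 587 and 495. Bmp1, the C-proteinase of procollagen, was at 63.7 and 34.5. Fap and Dpp4, surface serine proteases, were not detected.

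Growth factors and cytokines were on less often than entries of the table at large. Of 223 entries 34 were on and 103 not detected, against 34.3% on and 30.0% not detected of all entries. Together these 223 took 0.752% ± 0.0459 of the reads (SD, n = 2). None of the 22 FGF entries and none of the 18 WNT entries was on. Fgf7, which fibroblasts make for epithelium, had 1 and 3 reads, and Fgf2, a stromal mitogen, was not detected. The IGF ligands Igf1 and Igf2 were not detected, whereas the IGF-binding proteins Igfbp7, at 150.2 and 155 RPM, Igfbp4, at 141 and 124, and Igfbp6, at 81.9 and 138, were on.

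Among growth factors apart from the chemokines, Grn, progranulin, was at 1506 and 1749 RPM and Hdgf at 887 and 1041. Csf1, which keeps macrophages alive, was at 200.2 and 118. Pdgfa, a mitogen for mesenchymal cells, was at 505 and 423, and Vegfa, the angiogenic factor, at 141 and 259, with Pgf at 41.0 and 46.0 and Vegfb at 22.8 and 34.5. Pdgfb had 1 and 4 reads and Pdgfc was not detected. In the TGF-beta family 3 of 29 entries were on, and these were the TGF-betas themselves. Tgfb3 was at 86.5 and 97.8, Tgfb1 at 72.8 and 28.8 and Tgfb2 at 41.0 and 40.3. Amh, Bmp15, Bmp5 and Bmp7 were not detected. Of the EGF family Hbegf, at 127 and 71.9, Areg, at 50.1 and 34.5, and Nrg1, at 36.4 and 28.8, were on.

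Of 36 chemokine entries 6 were on, against 34.3% of all entries. Ccl2, which draws monocytes, was at 1433 and 665 RPM. Cxcl1, a neutrophil attractant, was at 464 and 475, Cxcl16 at 273 and 250.3 and the interferon-induced Cxcl10 at 127 and 101. Ccl2 had the smallest p of all genes between the libraries, at 2.16-fold higher in replicate 1 (adjusted p = 4.8e-15, exact binomial test). The chemokines together took 0.249% of the reads in replicate 1 and 0.163% in replicate 2. None of the 19 chemokine receptors was on. Of 53 interleukin, interferon and TNF family entries 6 were on, with Mif, the macrophage migration inhibitory factor, highest at 196 and 147, and Ifnb1, Ifng and Il10 not detected.

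Receptors other than the chemosensory ones had 73 of 279 entries on, against 34.3% of all entries. They took 1.34% ± 0.0175 of the reads (SD, n = 2). Of 38 receptor tyrosine kinases 7 were on. Axl, the receptor for Gas6, was at 278 and 181 RPM. Ryk, a WNT co-receptor, was at 164 and 167. Pdgfrb was at 146 and 149.6 and Pdgfra at 22.8 and 28.8, a ratio of 6.40 in replicate 1 and 5.20 in replicate 2. Pdgfra lay near the limit for a gene on, so this ratio rests on few reads. Both PDGF receptors were thus on together with the ligand Pdgfa. Igf1r was at 95.6 and 80.5 and Fgfr1 at 22.8 and 57.5. A receptor of each of these families was thus on, while Igf1, Igf2 and the FGF entries were not. In replicate 2 alone 2 FGF entries had at least 4 reads. Csf1r, the receptor of Csf1 and a macrophage marker, was on beside its ligand. Egfr had 2 and 5 reads and stayed at trace level, and Erbb3, Erbb4, Fgfr4 and Insr were not detected.

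The TGF-beta receptors were hardly read. Of 14 entries 2 were on, Acvr1 at 22.8 and 23.01 RPM and Tgfbr1 at 18.2 and 11.5. Tgfbr1 lay at the limit of that call, and with 10 reads asked of each library none of the 14 was on. Tgfbr2, which binds the ligand, had 1 and 3 reads, and the co-receptors Tgfbr3 and Eng were not detected. All 14 took 0.00939% ± 0.00299 of the reads (SD, n = 2), less than the 0.0306% ± 0.00428 of the ligand family. In the ephrin system Epha2 was at 241 and 256 and its ligand Efna1 at 127 and 247. Fzd2, a WNT receptor, was at 114 and 175, and Notch2 and Notch4 were not detected.

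Cytokine and TNF receptors had 15 of 61 entries on, against 34.3% of all entries. Tnfrsf12a, the receptor of TWEAK, was at 359 and 432 RPM. Il6st, the signalling chain shared by the IL-6 family, was at 196 and 256. Il1rl1, the IL-33 receptor, was at 218 and 169.7, Ifngr1 at 159 and 219 and Tnfrsf1a at 164 and 207. Il6r was at 196 and 94.9, so both chains of the IL-6 receptor were on. Among receptors for serum lipids and proteases F2r, the thrombin receptor PAR1, was at 95.6 and 89.2. Lpar3 was at 109 and 31.6 and S1pr2 at 45.5 and 60.4, while S1pr1 and Lpar2 were not detected.

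**Figure D4:**
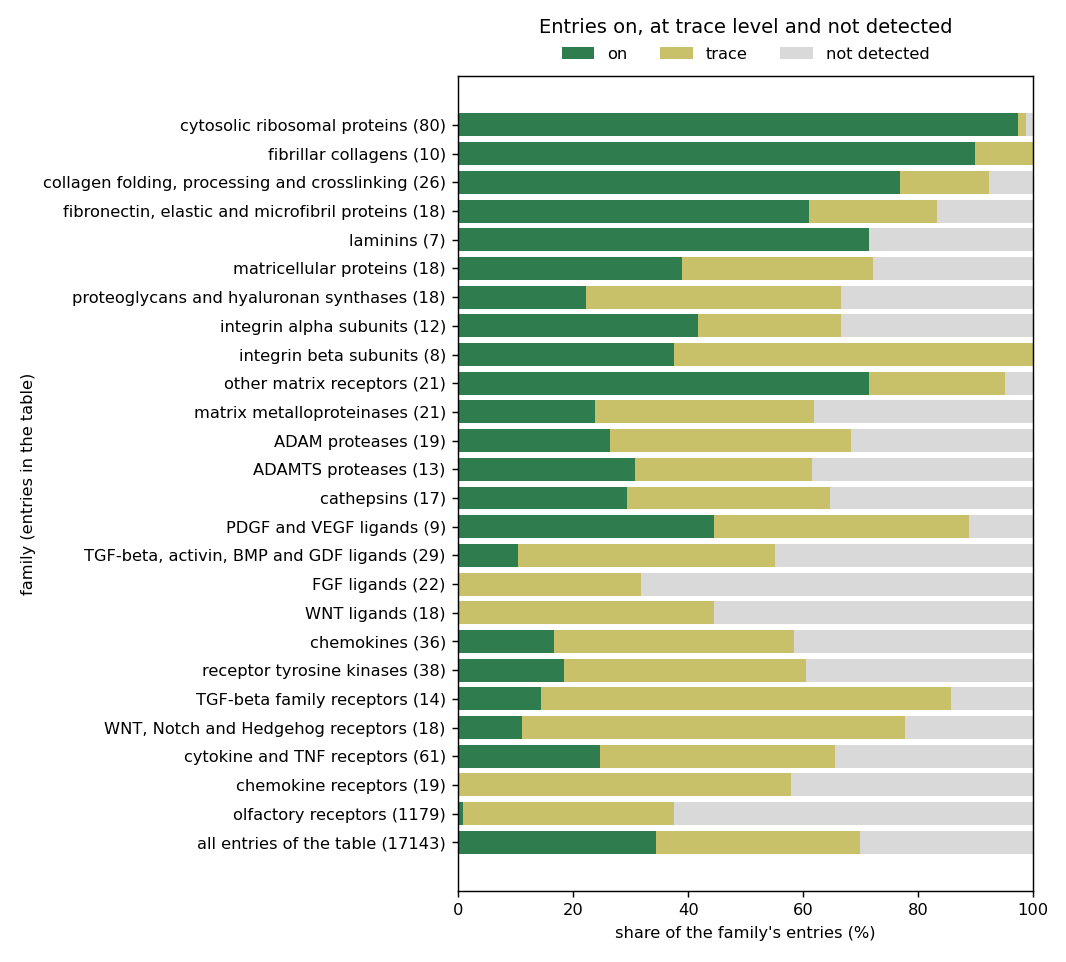
Bars give, for each family, the share of its entries (percent) that were on, at trace level and not detected on native matrix. Ribosomal proteins lie near 100% on, while FGF ligands, WNT ligands and chemokine receptors have no entry on.

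Genes of the cytoskeleton, to which integrins couple the matrix, took 8.42% ± 0.183 of the reads (SD, n = 2). Of 46 actin-binding and contractile entries 41 were on. Cfl1 was followed by Myl12a, a regulatory myosin light chain, at 2148 and 2828 RPM. Pfn1, profilin, which loads actin with ATP, was at 2412 and 2362, and Tagln2, transgelin-2, at 1806 and 1824. Actb exceeded Actg1 7.07-fold in replicate 1 and 5.32-fold in replicate 2. Acta2, the smooth muscle actin of myofibroblasts, was at 63.7 and 184, and its libraries differed (adjusted p = 0.0124, exact binomial test). It was the lowest actin on, and Acta1 of skeletal muscle was not detected.

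Focal adhesion plaque genes were on for 15 of 26 entries, against 34.3% of all entries. Csrp1 was at 523 and 408 RPM, Tln1, talin, which activates integrins, at 364 and 308, and Ilk, integrin-linked kinase, at 387 and 236. Vasp, which extends actin filaments, was at 250.3 and 204. Src, the kinase, had 0 and 2 reads. Tubulins were led by Tuba1b at 1952 and 2572, Tubb5 at 1606 and 1516 and Tuba1a at 1288 and 1464. The nuclear lamin Lmna was at 646 and 768 and the progenitor filament Nes, nestin, at 223 and 379.7. Calcium-binding S100 proteins took 0.862% ± 0.0505 of the reads (SD, n = 2), with S100a6 at 2321 and 2289.9 and S100a10, the partner of annexin A2, at 1643 and 1424. Anxa2 itself was at 1024 and 1274, and 9 of 11 annexins were on.

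Among the classes of gene lists, housekeeping functions formed the largest block, at 16.5% ± 0.443 of the reads (SD, n = 2). All lists together, apart from the lens list, held 32.7% of the reads, so most reads lay in genes of no list. Cytosolic ribosomal proteins alone took 5.57% ± 0.245, with 78 of 80 entries on and 12 among the 100 highest genes. Rps3 was at 3599 and 3633 RPM, Rpl41 at 2379.7 and 3006 and Rps16 at 2657 and 3898. Many ribosomal protein genes have processed copies elsewhere in the genome, so the level of a single one is uncertain. Translation factors took 2.07% ± 0.0810, led by Eif5a at 3349 and 3196 and Eef2 at 2457 and 2721. Eef1a1, one of the most abundant messenger RNAs of most cells, was at only 728 and 731, which left Eif5a 4.60-fold and 4.37-fold above it. Eef1a1 has near-identical copies in the genome, so its level is uncertain.

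Ribosomal protein messages begin, as a rule, with a run of pyrimidines (the TOP motif) through which their translation is regulated. A start of C followed by at least 4 pyrimidines was found at the annotated start in 24 of 63 ribosomal protein genes on with a RefSeq window (38.1%), against 2.87% of all genes on and 2.63% of all windows. The windows of 3 of the highest are shown with 15 bases on either side of the start and the pyrimidine run in capitals: Rplp0 (chr12:46718376-46718405, minus strand), Rps15 (chr7:10068101-10068130, minus strand) and Rps26 (chr7:1643390-1643419, minus strand), all of GRCr8.
Rplp0: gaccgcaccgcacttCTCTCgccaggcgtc
Rps15: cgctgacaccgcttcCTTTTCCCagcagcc
Rps26: gagagccgccgggtcCTCTTTCgagtcttg

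Nuclear subunits of oxidative phosphorylation took 2.25% ± 0.00423 of the reads, with 76 of 78 entries on and Atp5b, of the ATP synthase, at 1624 and 1614 RPM. Glycolysis took 1.48% ± 0.00246 (SD, n = 2), with 14 of 24 entries on. Aldoa was at 3367 and 3018, Pkm at 2298 and 2094, Pgk1 at 1984 and 2025 and Eno1 at 1775 and 2221. Aldoc, Gapdhs, Pgam2 and Ldhc, forms of brain, muscle and testis, were not detected. Ldha was at 1624 and 1525, while Ldhb had 6 and 0 reads, which left Ldha as the form on among Ldha, Ldhb and Ldhc. Among antioxidant and iron genes 22 of 23 were on, led by Fth1 at 3540.0 and 3567 and Gstp1 at 3017 and 2934, with Prdx1, a peroxidase, at 1015 and 1412. Chaperones were led by Calr, with Hsp90ab1 at 1301 and 1449.9 and Hspa5, BiP of the endoplasmic reticulum, at 1056 and 1194. Of 47 proteasome entries 43 were on, and Psmb8, a subunit of the immunoproteasome, was not detected.

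Cell cycle and immediate early genes were widely on. The share of all entries on was 34.3%. Of 31 cell cycle genes, a list of S phase and G2/M genes with G1 cyclins and kinases, 29 were on. Cdk4, the G1 partner of D-type cyclins, was at 809.9 and 808 RPM, Plk1, a mitotic kinase, at 432 and 578, Pcna, the clamp of DNA replication, at 546 and 440.1, and Top2a, topoisomerase II, at 246 and 406. Of 28 immediate early genes 22 were on, and 14 with 10 reads asked of each library. The highest were Junb at 592 and 673, Fosl1 at 387 and 308, Jund at 296 and 207 and Ier5 at 268 and 222. Fos itself, among the fastest to rise and decay after a stimulus, had 8 and 3 reads and was at trace level, and Egr3 was not detected.

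Many immediate early genes are known targets of serum response factor, which binds the CArG box, a 10-base element. Its letters were found within 250 bases before the start, on either strand, in 5 of 18 immediate early genes on with a window (27.8%), against 1.31% of all genes on and 1.501% of all RefSeq windows. The boxes, in capitals, of 2 of these genes are shown with that of Actg1, an actin with the same element: Actg1 (chr10:106121007-106121066, minus strand), Dusp5 (chr1:262543677-262543736, plus strand) and Egr2 (chr20:21054490-21054549, minus strand), all of GRCr8. Only the match nearest the start is in capitals. In Dusp5 a further match to the same element lies directly before it, in small letters. A match of letters is a description and not a measured site.
Actg1: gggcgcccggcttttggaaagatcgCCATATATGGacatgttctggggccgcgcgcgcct
Dusp5: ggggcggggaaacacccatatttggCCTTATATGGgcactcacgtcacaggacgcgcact
Egr2: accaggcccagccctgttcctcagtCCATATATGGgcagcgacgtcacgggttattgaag

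The duplicates gave the same picture for abundant genes and a looser one for rare genes. Levels correlated across the 5883 genes on with a Spearman rho of 0.845, a value across genes, which are not replicates. The median difference between libraries was 0.44 on the log2 scale over genes on and 0.17 over the 100 highest. By an exact two-sided binomial test of reads, 216 of 11999 genes with a read (1.80%) differed at an adjusted p under 0.05, 134 higher in replicate 1 (1.12%) and 82 higher in replicate 2 (0.683%). Before adjustment, 1703 had a p under 0.05 by this exact binomial test. Genes with very few reads could not be called however their reads were split, and 6386 genes had at least 10 reads over both libraries. The low share called is therefore no measure of how alike the libraries were. This test compares the libraries themselves and not conditions. Of the 216, 152 were on and 21 were among the 100 highest genes.

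After Ccl2, the smallest adjusted p-values of the exact binomial test belonged to Mip and to Rps16, at 2657 and 3898 RPM (adjusted p = 1.1e-11, exact test). Hnrnpa2b1, a splicing factor, was at 1734 and 987 and Vim at 4113 and 5379. Car3, carbonic anhydrase 3, was at 1847 and 1185, and Capzb, which caps actin filaments, at 259 and 569.6. Mapre1, which tracks microtubule ends, was at 592 and 293, and Slc38a2, a glutamine transporter, at 1110.2 and 682. The predicted entry LOC306766 completed the 10. Of these 10, Rps16, Vim and Capzb were higher in replicate 2 and the other 7 in replicate 1. Col1a1, Actb and Acta2 were also among the 216, so their levels carry more than counting error.

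**Figure D5:**
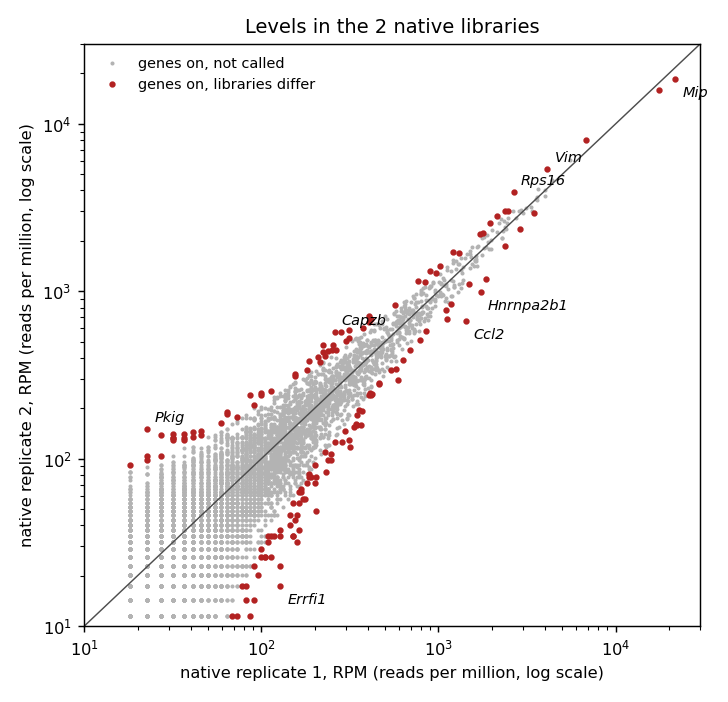
Each point is a gene on, with its level in native replicate 1 on the horizontal and in native replicate 2 on the vertical axis, both in RPM on log axes. Red points mark genes whose libraries differed by the exact binomial test, 152 of 5883, and they lie on both sides of the diagonal.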

How the data were processed

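The 2 libraries of Rat-1 cells on native matrix were taken from a deposited table of 17143 entries by 6 libraries. The tools named, per the submitters' processing notes, are bcl2fastq, TopHat and DESeq, on build rn5. Not given in the sources used here are their versions, the gene counter, the annotation, strand use and whether molecular identifiers were collapsed. What the authors deposited is signal: read counts over a size factor for the library, as the values show, since 100% are whole multiples of 1 read within 0.01 reads. Whole reads were recovered, giving 219775 and 347618 reads, and scaled to RPM. Means and SDs are over the 2 libraries. Intervals and floors cover counting error only, and reads may include PCR copies.

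The libraries were compared per gene by an exact binomial test with Benjamini-Hochberg adjustment, tested on simulated data first. Python 3.11.15, numpy 2.4.6, pandas 2.3.3, scipy 1.17.1 and matplotlib 3.10.9 were used. RefSeq (GRCr8) matched 97.6% of entries, and 31 entries repeated the reads of another.

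The 76 gene lists and the members were chosen with earlier results of these data known. The patterns for interferons and tubulins were corrected, and the lens list added, after values were seen. Named genes are the 25 highest, up to 4 members on per family (8 for collagens, integrins, proteases, growth factors and receptors) and up to 4 not detected, and the 10 genes with the smallest adjusted p. Some genes that this rule names are not reported here. Trace genes and some further members were named after their values were seen. Alternatives were other read minimums, thinning, other totals, size factors and each library alone.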

Additional observations from a re-analysis of the deposited data

How the results depend on the processing

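The rule for a gene on set how many were counted. With 10 reads asked of each library 3726 genes were on, with 1 read 8596, and with the deeper library thinned 5464. Judged on 1 library alone, without replicate 1 or without replicate 2, 7363 or 6667 genes were on. The olfactory receptors on, 9 as reported, were 96 with 1 read and 1 with 10. Without predicted genes the 10 highest genes held 7.60% and the 100 highest 24.9% of the reads. Without Mip, an alternative chosen after seeing the data, they held 5.93% and 23.1%. With either library left out, the 1000 highest genes held from 61.4% to 62.6%. With the size factors behind the deposited values 236 genes differed between the libraries. Over 74 families, the number of members on changed by over 1.5 times in 29 with 1 read, 22 with 10 reads, 17 without replicate 1 and 10 without replicate 2. Family shares moved by more than 1 SD in 7 families without Mip, 7 without predicted genes and 5 without ribosomal RNA entries. The last 5 include the ribosomal RNA family itself, whose share changed by -98.6%. A smaller total raised the shares of families that kept their members. The median shift was 2.06%, 1.68% and 0.355% of the share in these settings, so such families moved where their SD was smaller than the shift. No paired analysis was possible because only 1 group of samples was described and no comparison of groups was made. Levels divided by transcript length were not run, since no table used here holds transcript lengths. Depth limits every call near 4 reads.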

Other observations

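Of 40 nuclear receptors 14 were on, a share near that of all entries (34.3%), with Rarg, a retinoic acid receptor, at 182 and 253 RPM in replicates 1 and 2. Nr1h2, an oxysterol receptor, was at 218 and 210.0. Esr2, Esrrg, Nr0b1 and Nr1h3 were not detected. Of 28 mesenchymal and limb factors 15 were on, led by Runx1 at 155 and 164, Prrx2 at 155 and 147, Snai1 at 132 and 101 and Meox1 at 81.9 and 89.2. Tcf21, Msx1, Tbx4 and Tbx5 were not detected. HOX genes, which keep a record of position along the body axis, had 2 of 25 entries on, against 34.3% of all entries. A further 19 were at trace level. The 2 on belong to the HOXD cluster: Hoxd13 was at 45.5 and 57.5 and Hoxd10 at 63.7 and 28.8. Another 12 HOX genes had no entry, so the set is incomplete.

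Of 19 cadherins 3 were on. Cdh3, P-cadherin, was at 114 and 92.1 RPM, Cdh2, N-cadherin, at 72.8 and 74.8, and Cdh11, the cadherin of fibroblasts and bone, at 22.8 and 20.1, while Cdh1, E-cadherin, had 0 and 1 reads. Of 47 keratins 4 were on. Krt81, a hair keratin, was at 173 and 155 and gave 50.9% of their reads, and Krt8 of simple epithelium was at 45.5 and 28.8, although its usual partner Krt18 had 2 and 0 reads. Histone messages were led by replacement forms that are polyadenylated, H3f3b at 2279.6 and 2071 and H1f0 at 814 and 1050.0. No entry of the table named a gene of the mitochondrial genome.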
